A study of Danio rerio with 6 samples.

Results

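RNA splicing factor genes were taken from the count table by name: every gene whose Ensembl name, in either case, begins with srsf or prpf and a digit, hnrnp, hnrp, sf3a or sf3b and a digit, snrp, u2af1 or u2af2, clk1 to clk4, or tra2a or tra2b. The rule found 83 of 32520 genes, made up of 20 SR proteins (with the Tra2 genes among them), 24 heterogeneous nuclear ribonucleoproteins (hnRNPs), 35 core spliceosome subunits and 4 CLK kinases. Of the 83, 81 had enough counts to be tested. The rule used names only and no measured value, but it was chosen with earlier results of these data known. Where 2 genes share a name, the Ensembl identifier is given.

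The samples are zebrafish of a transgenic line in which sp7, a gene that osteoblasts need to differentiate, marks cells with green fluorescent protein (GFP). GFP-positive cells were sorted at 4 days post fertilization, and RNA was sequenced from 3 libraries of embryos exposed to 200 nM bisphenol A (BPA) from 24 hours post fertilization and from 3 libraries of control embryos, with 400 embryos per arm. BPA is a plastics monomer with estrogenic activity. All 6 libraries carry the same transgene, and the labels do not state whether the control medium held dimethyl sulfoxide, in which BPA stocks were made. Nothing in the labels ties each library to its own pool of embryos, and the p-values may therefore measure technical spread only.

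Splicing removes introns from transcripts and joins exons. The spliceosome is built from small nuclear ribonucleoproteins (snRNPs), named U1, U2, U4, U5 and U6 after their RNAs. Sm proteins form a ring on most of these RNAs, the SF3A and SF3B complexes belong to the U2 snRNP, and U2AF marks the 3′ splice site for it. SR proteins, which carry stretches rich in arginine and serine, mostly bind exons and favour their inclusion, while hnRNPs bind exons and introns and often, though not always, oppose it. CLK kinases phosphorylate SR proteins in the nucleus. Many SR protein and hnRNP genes are known in other vertebrates to regulate their own transcripts through exons that lead to decay. Read counts per gene cannot show which exons were used.

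Library totals lay between 30748435 and 42863847 counts in exposed and between 32173615 and 43403568 in control libraries. Levels are CPM (counts per 1000000, with TMM scaling between libraries) and are not corrected for transcript length, so they are not compared between genes. The labelled cell type was checked against 18 osteoblast marker genes, whose summed level was 11800 to 11924 CPM in exposed and 9852 to 10099 CPM in control libraries. Most of that sum came from COL1A1, COL1A2, col1a1a and SPARC, which averaged 4037, 2826, 2718 and 1962 CPM in exposed libraries. The same genes averaged 2715, 2350, 3048 and 1592 CPM in control libraries. Of 17 osteoblast markers tested, 5 were higher, 5 were lower and 7 did not pass. The lower ones were col1a1a, BGN (ENSDARG00000002945), spp1, PANX3 and IFITM5. This BGN gene stood at 9.45 CPM in exposed and 14.2 CPM in control libraries. The genes spp1, PANX3 and IFITM5 were at 3.37, 4.82 and 7.37 CPM in exposed and 5.44, 7.18 and 9.76 CPM in control libraries. The higher ones were COL1A1, COL1A2, SPARC, PHEX and BGN (ENSDARG00000017884). SP7 stood at 8.49 ± 0.355 CPM in exposed and 6.87 ± 1.55 CPM in control libraries (SD, n = 3 each), and the osteocalcin gene bglap had no count in any library. Markers of other tissues were also present. Liver genes summed to 1279 to 1289 CPM in exposed and 4055 to 4212 CPM in control libraries (10 of 10 lower). Epidermis genes summed to 24424 to 25049 CPM in exposed and 13620 to 14100 CPM in control libraries (7 of 9 higher). Immediate early and dissociation stress genes summed to 1820 to 1877 CPM in exposed and 1360 to 1450 CPM in control libraries (9 of 12 higher, 1 lower). Leukocyte markers (10 of 15 higher, 1 lower) and erythroid markers (4 of 6 higher, 0 lower) summed to 255 to 269 and 636 to 653 CPM in exposed libraries, against 189 to 198 and 417 to 426 CPM in control libraries. Chondrocyte markers summed to 1184 to 1224 CPM in exposed and 1498.5 to 1535 CPM in control libraries (9 of 11 lower). In bulk RNA, fewer cells of a type and less RNA per cell cannot be told apart, and the part of cell mixture and of dissociation stress in the results below was not tested.

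Splicing factor genes changed little in size and mostly downward. Of the 81, 33 passed an adjusted p of 0.05 in edgeR's quasi-likelihood test, with p-values adjusted by Benjamini-Hochberg over all 21194 genes tested. Of these, 26 were lower and 7 higher in exposed libraries. Among all genes tested 38.8% were called, 18.7% lower and 20.1% higher. The members' total share of calls, 40.7%, is close to that background, but their split is not, with 32.1% lower and 8.64% higher. The median log2 fold change was -0.09 for the members and -0.003 over all genes. Log2 fold changes of the members ran from -0.63 to 0.32, and the middle 50% lay between -0.21 and -0.01, against -0.31 and 0.38 over all genes. A single member, CLK2 (ENSDARG00000062954), passed a 1.5-fold change, which 29.8% of all tested genes did. The groups did not overlap for 45 members, 34 lower and 11 higher in exposed libraries. Over all genes they did not overlap for 48.4%, 23.2% lower and 25.2% higher. Without exposed library 3, 4 members were higher in place of 7.

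**Figure D1:**
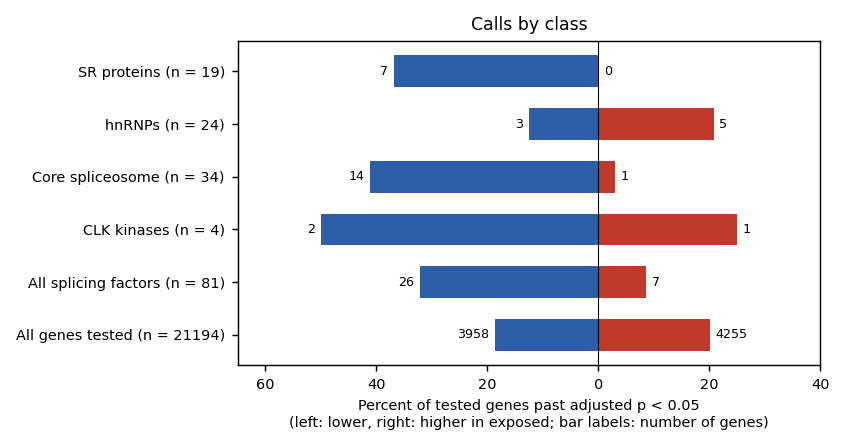
Percent of tested genes past an adjusted p of 0.05, to the left for genes lower and to the right for genes higher in exposed libraries, by class and over all 21194 genes tested, with the number of genes at each bar. SR proteins and core spliceosome subunits were called almost only as lower (7 against 0 and 14 against 1), while hnRNPs had 3 lower and 5 higher.

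The classes differed in how their calls split, as a description with no test between classes. SR proteins had 7 of 19 lower, 0 higher and 12 not past (median log2 fold change -0.14). Beside that 0 stand 0 from DESeq2, and 9 SR protein genes in either direction at an unadjusted p under 0.05 in edgeR. Without control library 1, 2 SR protein genes were higher. Core spliceosome genes had 14 of 34 lower, 1 higher and 19 not past (median -0.12). hnRNP genes had 3 of 24 lower, 5 higher and 16 not past (median -0.06). The 5 became 3 without control library 1 or 3, or without any 1 exposed library. Among the 4 CLK genes, 2 were lower, 1 was higher and 1 did not pass. In either direction 36.8% of SR protein, 44.1% of core spliceosome and 33.3% of hnRNP genes were called, against 38.8% of all genes tested. Lower and higher shares were 41.2% and 2.94% for core genes and 12.5% and 20.8% for hnRNPs. Over all genes tested they were 18.7% and 20.1%.

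The medians of SR protein and core spliceosome genes were below 0 in each exposed library. Set against the control mean of each gene, the median SR protein gene stood at -0.14, -0.14 and -0.10 on the log2 scale in exposed libraries 1, 2 and 3, and between -0.03 and 0.03 in control libraries. For core spliceosome genes these medians were -0.12, -0.11 and -0.13 in exposed libraries and between -0.02 and 0.04 in control libraries. For hnRNPs they were -0.01, -0.07 and 0.003 in exposed libraries and between -0.02 and 0.01 in control libraries. Of all library counts, SR protein genes held 0.159% ± 0.00245 in exposed and 0.177% ± 0.000620 in control libraries (SD, n = 3 each). Core spliceosome genes held 0.287% ± 0.00158 in exposed and 0.304% ± 0.00250 in control libraries. hnRNP genes held 0.285% ± 0.00124 in exposed and 0.287% ± 0.00646 in control libraries, a difference smaller than the spread between the control libraries.

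**Figure D2:**
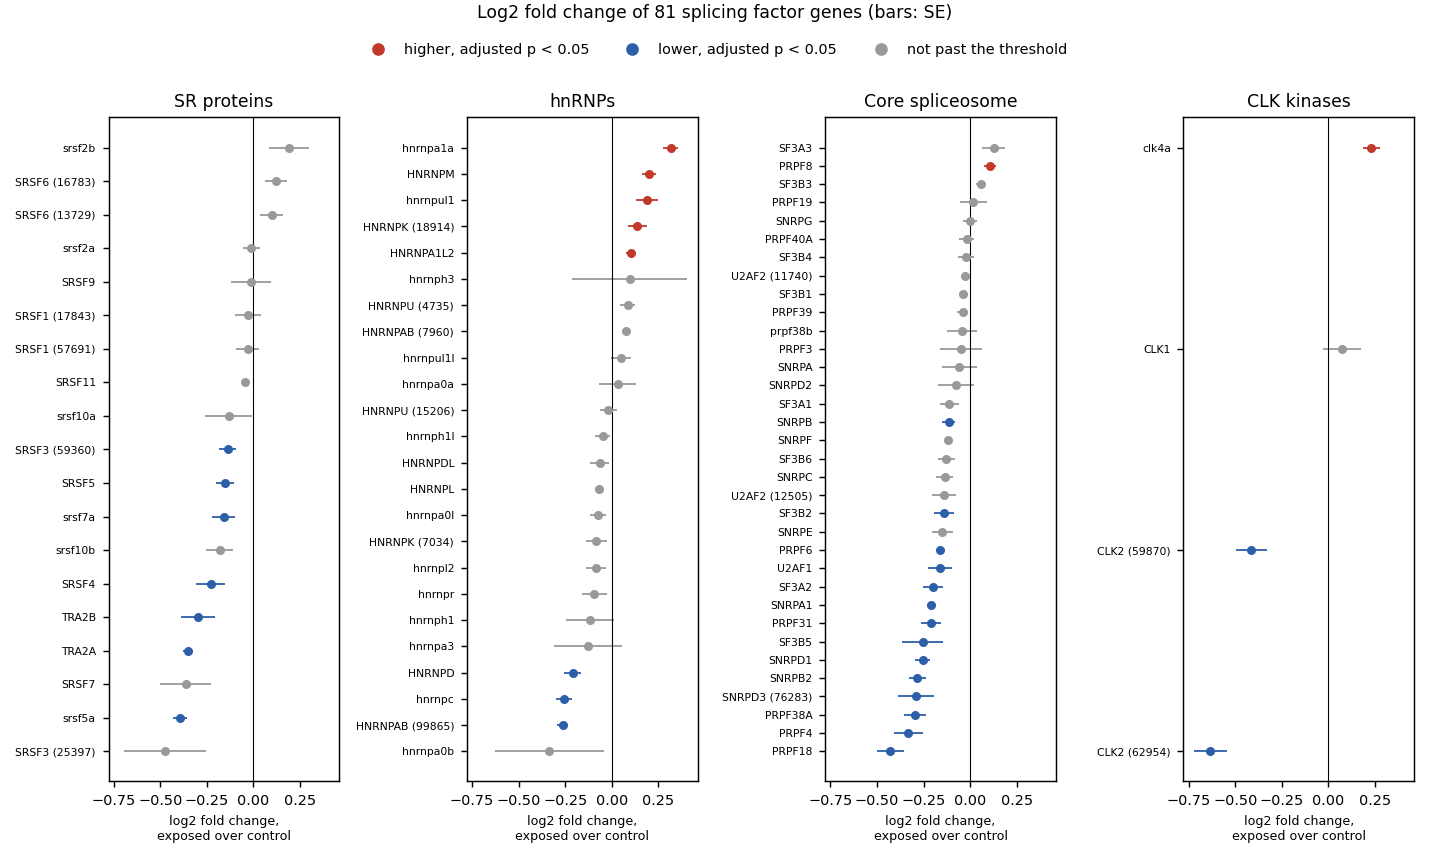
Log2 fold change, exposed over control, of the 81 tested splicing factor genes in 4 panels by class, with bars for the standard error. Red marks genes past the threshold and higher, blue past it and lower, grey not past. Numbers in parentheses are the last digits of the Ensembl identifier of genes that share a name. CLK2 (ENSDARG00000062954) is the lowest at -0.63 and hnrnpa1a the highest at 0.32.

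The CLK kinases held the largest change among the splicing factor genes. CLK2 (ENSDARG00000062954) stood at 55.3, 55.3 and 53.1 CPM in exposed libraries 1, 2 and 3, against 90.0, 74.95 and 89.2 CPM in control libraries 1, 2 and 3. All exposed values were below all control values, and control library 2 was the lowest of its group. This gene fell by 0.63 ± 0.09 (SE) on the log2 scale (edgeR adjusted p = 1.98e-09), a level 35.5% lower. The other gene of that name, CLK2 (ENSDARG00000059870), stood at 16.6, 13.8 and 15.6 CPM in exposed and 19.8, 20.2 and 21.2 CPM in control libraries. Its groups did not overlap either, and its log2 fold change was -0.41 ± 0.08 (edgeR adjusted p = 0.00243). Their relative clk4a (ENSDARG00000089372) went the other way, with 152, 165 and 152 CPM in exposed and 135, 128 and 136 CPM in control libraries. It rose by 0.23 ± 0.05 on the log2 scale (edgeR adjusted p = 0.000117). CLK1 (ENSDARG00000005908), at 45.4 ± 4.13 CPM in exposed and 43.05 ± 3.45 CPM in control libraries (SD, n = 3 each), did not pass (edgeR adjusted p = 0.496). The 3 calls held under every alternative run. Among 14 other genes of SR protein kinases, related kinases and phosphatases, 1 was higher, 2 were lower and 11 did not pass. The share called, 21.4% (7.14% higher and 14.3% lower), was below the 38.8% of all genes tested (20.1% higher and 18.7% lower). Without exposed library 3 these were 2 higher and 1 lower, and without control library 2 there were 2 higher. SRPK3, an SR protein kinase gene known from muscle in mammals, was at 14.0 ± 1.16 CPM in exposed and 19.1 ± 2.99 CPM in control libraries and fell. hipk1b rose, with 73.3 ± 3.14 CPM in exposed and 57.2 ± 2.25 CPM in control libraries. Skeletal muscle markers summed to 15647 to 16031 CPM in exposed and 11351 to 11927 CPM in control libraries (8 of 9 higher and 1 lower), and their part in these values was not tested.

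**Figure D3:**
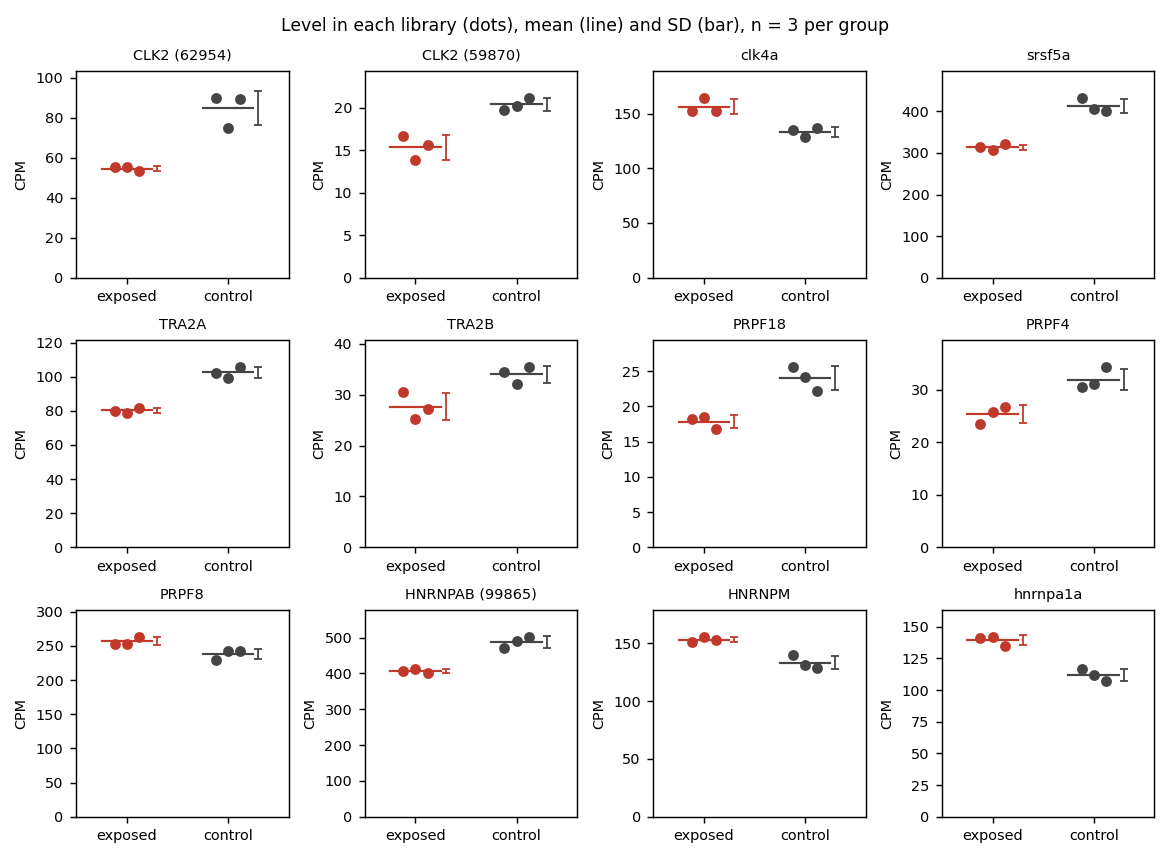
Level in CPM (y axis from 0) of 12 splicing factor genes in the 3 exposed (left, red) and 3 control libraries (right, dark grey) of each panel, with dots for libraries, a line for the mean and a bar for the SD. The 12 genes were picked from the 33 called members, all but 2 of which had groups that did not overlap. In each of the 12 panels the exposed and control dots do not overlap, as for hnrnpa1a with 135 to 142 CPM in exposed and 107 to 116 CPM in control libraries.

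Among SR protein genes, srsf5a and the Tra2 genes fell most of those called. The level of srsf5a (ENSDARG00000029818) was 313, 308 and 320.4 CPM in exposed and 433, 405 and 400.4 CPM in control libraries. All exposed values lay well below the lowest control value. The gene fell by 0.40 ± 0.04 on the log2 scale (edgeR adjusted p = 4.13e-10). Tra2 proteins bind purine-rich exonic enhancers beside SR proteins. TRA2A (ENSDARG00000007863) was at 80.2, 79.0 and 81.9 CPM in exposed and 102, 99.5 and 106 CPM in control libraries. TRA2B (ENSDARG00000002168) was at 30.6, 25.2 and 27.3 CPM in exposed and 34.4, 32.1 and 35.4 CPM in control libraries. Neither pair of groups overlapped, though exposed library 1 came close to control library 2 for TRA2B. Their log2 fold changes were -0.35 ± 0.03 and -0.30 ± 0.09 (edgeR adjusted p = 1.28e-06 for TRA2A and 0.00552 for TRA2B). Without exposed library 2 the adjusted p of TRA2B was 0.0673.

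A further 4 SR protein genes fell by smaller amounts. SRSF4 (ENSDARG00000105293) averaged 84.8 ± 1.96 CPM in exposed and 99.5 ± 8.70 CPM in control libraries (edgeR adjusted p = 0.00159). SRSF5 (ENSDARG00000027734) averaged 106 ± 3.57 CPM in exposed and 118 ± 5.41 CPM in control libraries, and srsf7a (ENSDARG00000035325) 101 ± 3.37 and 113 ± 7.65 CPM in the same order. SRSF3 (ENSDARG00000059360), an SR protein gene also known for its part in mRNA export, averaged 159.6 ± 4.96 CPM in exposed and 176 ± 8.16 CPM in control libraries (edgeR adjusted p = 0.0112). Of these calls, 3 were lost without 1 library. The adjusted p was 0.0872 for SRSF5 without exposed library 3, 0.0921 for SRSF3 (ENSDARG00000059360) without exposed library 2, and 0.0853 and 0.101 for srsf7a without exposed library 1 or control library 3.

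The SRSF1 and SRSF2 genes, the first SR protein genes described in mammals, did not pass. SRSF1, which acts in constitutive and alternative splicing, has 2 genes in the table. SRSF1 (ENSDARG00000057691) was at 78.0 ± 0.521 CPM in exposed and 79.8 ± 5.64 CPM in control libraries (edgeR adjusted p = 0.710), and SRSF1 (ENSDARG00000017843) at 28.8 ± 2.17 and 29.3 ± 1.17 CPM in the same order (edgeR adjusted p = 0.828). The gene srsf2a was at 158 ± 7.18 CPM in exposed and 159.5 ± 4.72 CPM in control libraries (edgeR adjusted p = 0.872), and srsf2b at 22.2 ± 1.73 and 19.5 ± 1.90 CPM (edgeR adjusted p = 0.148). The lowest log2 fold change of the class was that of SRSF3 (ENSDARG00000025397), at -0.47 ± 0.22 (edgeR adjusted p = 0.121). This low gene stood at 3.10 ± 0.718 CPM in exposed and 4.31 ± 0.425 CPM in control libraries. Both SRSF6 genes leaned upward (log2 fold changes 0.10 and 0.12) and passed only without control library 1, at adjusted p of 0.0231 for ENSDARG00000013729 and 0.0426 for ENSDARG00000016783. The remaining 5 tested genes that did not pass, SRSF7, srsf10a, srsf10b, SRSF9 and SRSF11, had log2 fold changes from -0.36 to -0.01. The gene srsf3a (ENSDARG00000100815) had 3, 8 and 6 counts in exposed and 0, 6 and 0 in control libraries and was not tested.

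Core spliceosome genes fell across several subcomplexes, each by less than a 1.5-fold change. In the Sm ring 3 of 7 tested genes fell, in the U1 and U2 snRNP proteins 2 of 4, in SF3A 1 of 3, in SF3B 2 of 6, in U2AF 1 of 3 and in the PRPF genes 5 of 11, and PRPF8 was the 1 that rose. Lower shares ran from 33.3% (SF3A, SF3B and U2AF) to 50.0% (U1 and U2 snRNP), against 18.7% of all genes tested. In either direction the 33.3% of SF3A, SF3B and U2AF was below the 38.8% of all genes tested. With 3 to 11 genes each, these shares are coarse. PRPF18 (ENSDARG00000058306), a factor of the step that joins the exons, stood at 18.3, 18.5 and 16.8 CPM in exposed and 25.6, 24.2 and 22.2 CPM in control libraries. PRPF4 (ENSDARG00000067639), a protein of the U4/U6 snRNP, stood at 23.4, 25.8 and 26.7 CPM in exposed and 30.5, 30.998 and 34.3 CPM in control libraries. For both genes every exposed value was below every control value. Log2 fold changes were -0.43 ± 0.07 for PRPF18 and -0.33 ± 0.08 for PRPF4 (edgeR adjusted p = 0.000760 and 0.00241). PRPF38A, needed for activation of the spliceosome, averaged 20.4 ± 0.967 CPM in exposed and 25.1 ± 1.28 CPM in control libraries (edgeR adjusted p = 0.0110, or 0.0612 without exposed library 1). PRPF31, a U4/U6 protein, averaged 45.1 ± 0.539 CPM in exposed and 52.3 ± 3.21 CPM in control libraries (edgeR adjusted p = 0.0111, or 0.0529 without control library 1). PRPF6, which bridges U5 and U4/U6, averaged 80.98 ± 1.54 CPM in exposed and 90.4 ± 2.14 CPM in control libraries (edgeR adjusted p = 0.0132, or 0.0724 without exposed library 3).

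Genes of the Sm ring, of the U2 snRNP and of U2AF gave the other decreases. SNRPD1 (ENSDARG00000011648) stood at 70.7, 67.6 and 71.1 CPM in exposed and 87.4, 81.3 and 81.3 CPM in control libraries, with a gap between the groups (log2 fold change -0.26 ± 0.04, edgeR adjusted p = 0.000367). SNRPD3 (ENSDARG00000076283) stood at 46.5, 55.5 and 46.7 CPM in exposed and 63.1, 56.7 and 62.3 CPM in control libraries (log2 fold change -0.29 ± 0.10, edgeR adjusted p = 0.00133). Here exposed library 2 was the highest of its group and near control library 2. A further gene named SNRPD3 (ENSDARG00000013800) had no count in any library, which at 3 counts allows up to 0.0974 CPM in an exposed and 0.0930 CPM in a control library. Whether its reads went to the other copy is not known from the table. The U2 snRNP genes SNRPB2 and SNRPA1 averaged 27.8 ± 1.20 and 58.5 ± 0.969 CPM in exposed libraries, against 33.8 ± 1.096 and 67.5 ± 1.81 CPM in control libraries (edgeR adjusted p = 0.00499 and 0.00432). SF3A2 averaged 79.1 ± 2.26 CPM in exposed and 90.7 ± 5.12 CPM in control libraries (edgeR adjusted p = 0.00425). The calls of SNRPB, SF3B2, SF3B5 and the 3′ splice site factor gene U2AF1, with log2 fold changes of -0.12, -0.14, -0.25 and -0.16, were each lost without any 1 of 3 libraries. For SNRPB these were exposed libraries 1 and 2 and control library 1 (adjusted p up to 0.141), and for SF3B2 exposed libraries 1 and 3 and control library 3 (up to 0.125). For SF3B5 they were exposed libraries 1 and 2 and control library 3 (up to 0.126), and for U2AF1 exposed libraries 2 and 3 and control library 1 (up to 0.130). SF3B5 and U2AF1 were also the called members whose groups overlapped.

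PRPF8 (ENSDARG00000026180), the U5 protein that holds the catalytic centre, stood at 253, 253 and 263 CPM in exposed and 229, 242 and 242 CPM in control libraries. Its exposed values were higher by a small margin (log2 fold change 0.11 ± 0.03, edgeR adjusted p = 0.0226). That call was lost without exposed library 3 (adjusted p = 0.133) or control library 1 (0.0924). SNRNP200 and EFTUD2, its U5 partners outside the name rule, rose as well, SNRNP200 with 113 ± 5.42 CPM in exposed and 99.3 ± 5.94 CPM in control libraries and EFTUD2 with 104 ± 6.81 and 92.2 ± 2.73 CPM (edgeR adjusted p = 0.00535 and 0.00758). EFTUD2 was picked after its value was seen, and the call of SNRNP200 was lost without exposed library 2 (0.0514). The list of core snRNP genes outside the name rule had 6 of 17 lower and 2 higher. PRPF6, which bridges U5 and U4/U6, was lower, as given above. SF3B1 (ENSDARG00000056138), which holds the branch point, was at 312 ± 5.73 CPM in exposed and 321 ± 5.82 CPM in control libraries and did not pass (edgeR adjusted p = 0.423). The U2AF2 genes, whose product reads the polypyrimidine tract, did not pass. ENSDARG00000011740 was at 139 ± 0.544 CPM in exposed and 142 ± 4.03 CPM in control libraries (edgeR adjusted p = 0.663). ENSDARG00000012505 was at 48.1 ± 0.695 and 52.9 ± 3.87 CPM (edgeR adjusted p = 0.0994, or 0.0181 without control library 3). The other core genes that did not pass had log2 fold changes from -0.15 (SNRPE) to 0.13 (SF3A3). Of these, SNRPE passed as lower without control library 2 (adjusted p = 0.0443) or 3 (0.0442), and SF3A3 as higher without control library 1 (0.0361). SF3A1 passed as lower without control library 2 (0.0330), and with all libraries when the replicate number was a block (0.0482).

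The hnRNPs moved in both directions, with 20.8% higher and 12.5% lower, against 20.1% and 18.7% over all genes tested. The highest fold change of the class was that of hnrnpa1a (ENSDARG00000011020), whose product binds exonic silencers. It stood at 141, 142 and 135 CPM in exposed and 116, 112 and 107 CPM in control libraries, with no overlap, and rose by 0.32 ± 0.04 on the log2 scale (edgeR adjusted p = 1.57e-06). HNRNPM (ENSDARG00000061735) stood at 151, 156 and 153 CPM in exposed and 140.1, 131 and 129 CPM in control libraries. It too was higher in each exposed library than in any control library, with a log2 fold change of 0.20 ± 0.04 (edgeR adjusted p = 0.000494). The gene hnrnpul1 averaged 94.3 ± 3.80 CPM in exposed and 82.6 ± 4.61 CPM in control libraries (edgeR adjusted p = 0.00570). A pair of smaller increases rested on the full set of libraries. HNRNPA1L2 (ENSDARG00000036675) averaged 201 ± 4.60 CPM in exposed and 188 ± 3.06 CPM in control libraries (edgeR adjusted p = 0.0412). HNRNPK (ENSDARG00000018914), whose product binds cytosine-rich RNA, averaged 89.9 ± 2.14 CPM in exposed and 81.7 ± 4.60 CPM in control libraries (edgeR adjusted p = 0.0441). Both calls were lost without any 1 library other than control library 2, at adjusted p between 0.0548 and 0.174 for HNRNPA1L2 and between 0.0603 and 0.179 for HNRNPK, and DESeq2 gave 0.0640 for HNRNPK.

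HNRNPAB (ENSDARG00000099865) led the decreases among hnRNPs. It stood at 408, 412 and 401 CPM in exposed and 471, 490.2 and 502 CPM in control libraries, and fell by 0.26 ± 0.03 on the log2 scale (edgeR adjusted p = 2.98e-07). The gene hnrnpc, whose product binds uridine tracts in introns, averaged 29.8 ± 0.969 CPM in exposed and 35.6 ± 1.45 CPM in control libraries (edgeR adjusted p = 0.00895). HNRNPD, whose product binds AU-rich elements and also acts in mRNA decay, averaged 36.2 ± 1.55 CPM in exposed and 41.9 ± 1.52 CPM in control libraries (edgeR adjusted p = 0.0191). Without exposed library 1 or 3 or control library 3 the adjusted p of HNRNPD was 0.0944, 0.0640 or 0.0562. The 16 hnRNP genes that did not pass had log2 fold changes from -0.34, for hnrnpa0b at 0.393 ± 0.143 CPM in exposed and 0.493 ± 0.00859 CPM in control libraries, to 0.10 for hnrnph3. Without control library 2, hnrnpr passed as lower (adjusted p = 0.0121).

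Zebrafish keep duplicate copies of many of these genes, and 13 pairs had both copies tested. Pairs were made from names alone, either the same or differing only by a final a or b, with PRPF38A, prpf38b and the Tra2 genes left out. Genes with less alike names, such as hnrnpa1a and HNRNPA1L2, both called higher, were not paired. In the main edgeR fit, both copies were called in 2 pairs, each time as lower (clk2 and srsf5), 1 copy was called in 4 pairs, and neither in 7. Copies called in opposite directions were found in 0 pairs in that fit. They were found in hnrnpab with DESeq2, and in edgeR with halved counts or without control library 2. The hnrnpab copies parted. ENSDARG00000099865 fell, as given above, while ENSDARG00000007960 was at 606, 600.2 and 593 CPM in exposed and 566, 573 and 568 CPM in control libraries, a log2 fold change of 0.08 ± 0.01 (edgeR adjusted p = 0.0549). It passed as higher with DESeq2 (adjusted p = 0.0166), with halved counts (0.0486) and without control library 2 (0.0403). The log2 ratio of ENSDARG00000007960 to ENSDARG00000099865 within a library was higher in the exposed group by 0.34 ± 0.03 (SE), with no overlap. Ratios without overlap between the groups also came from HNRNPK (ENSDARG00000018914 over ENSDARG00000007034, 0.22 ± 0.07), SRSF5 over srsf5a (0.24 ± 0.09), srsf2b over srsf2a (0.20 ± 0.09) and U2AF2 (ENSDARG00000011740 over ENSDARG00000012505, 0.11 ± 0.04). So did that of hnrnpa0a over hnrnpa0b (0.38 ± 0.21), where hnrnpa0b had only 10 to 22 counts per library. At the other end the 2 SRSF1 genes differed by -0.0005 ± 0.08 and the 2 SRSF6 genes by 0.02 ± 0.03. The ratio did not overlap in 6 of the 13 pairs, each at an exact two-sided permutation p of 0.1, the smallest that 3 against 3 libraries allow, or 0.217 adjusted over the 13 pairs. How often ratios of unrelated genes do not overlap was not computed. Of single genes, 48.4% of all tested had groups that did not overlap. The counting rule for reads that fit both copies is not stated, so values of near-identical copies are uncertain.

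**Figure D4:**
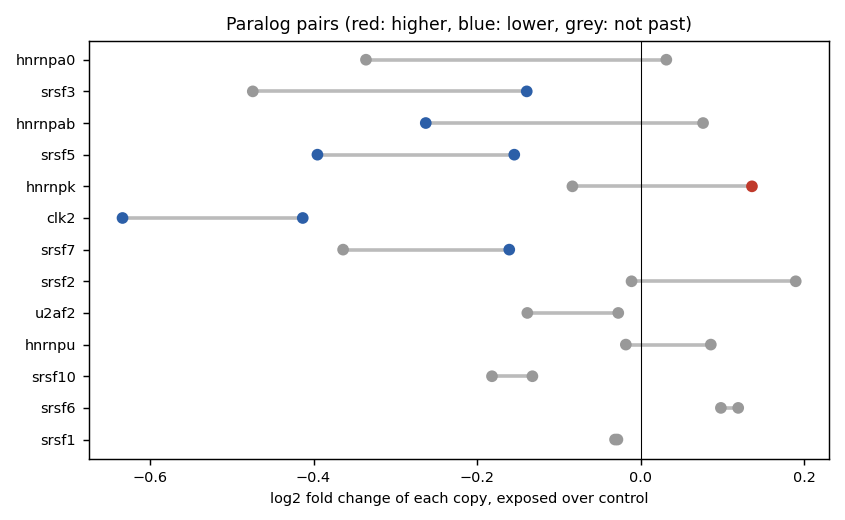
Log2 fold change, exposed over control, of both copies in 13 paralog pairs, joined by a line and ordered by their difference. Red marks a copy past the threshold and higher, blue past it and lower, grey not past. The copies of clk2 and srsf5 were both lower, and the copies of hnrnpab, hnrnpk, hnrnpu, hnrnpa0 and srsf2 lie on opposite sides of 0, with at most 1 copy of each called in the main edgeR fit. Both hnrnpab copies were called with DESeq2, with halved counts or without control library 2.

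Other genes of the splicing machinery came from lists made by function, also chosen with earlier results of these data known. Of 234 tested genes outside the name rule, 69 were lower, 28 higher and 137 did not pass, or 29.5% lower and 11.97% higher. Over all genes tested 18.7% were lower and 20.1% higher, 38.8% in either direction. By list the share called ran from 21.4% (SR protein kinases and phosphatases) to 52.5% (other RNA-binding splicing proteins). Below 38.8% were the kinase, Prp19, SMN, helicase, minor spliceosome and nonsense-mediated decay lists (33.3% or less). For each list the called genes with the largest decrease and increase are named. Prp19 complex and step II factors had 7 of 22 lower and 0 higher. In the 3 lists with 0 higher genes in edgeR (this, the SMN and the minor spliceosome list) DESeq2 also gave 0, and 8, 5 and 2 genes in either direction had an unadjusted p under 0.05 in edgeR. SYF2 fell there most, with 57.4 ± 0.473 CPM in exposed and 73.1 ± 0.429 CPM in control libraries. LSm genes, most of which form rings on U6 RNA or in mRNA decay, had 5 of 13 lower and 1 higher. LSM3 averaged 32.0 ± 0.767 CPM in exposed and 39.7 ± 5.84 CPM in control libraries, a call lost without control library 1 (edgeR adjusted p = 0.0536). Its distant relative lsm14aa rose, with 29.0 ± 0.939 CPM in exposed and 21.4 ± 0.882 CPM in control libraries. In the SMN complex and its partners, which load Sm rings, 3 of 11 were lower and 0 higher, with CLNS1A at 30.3 ± 1.84 CPM in exposed and 38.5 ± 4.69 CPM in control libraries. Spliceosomal helicases had 3 of 12 lower and 1 higher, or 2 higher without control library 3. DDX5 averaged 768 ± 4.91 CPM in exposed and 1095 ± 13.8 CPM in control libraries (log2 fold change -0.51, edgeR adjusted p = 6.58e-15). AQR, an intron-binding helicase gene, rose, with 75.4 ± 3.27 CPM in exposed and 58.4 ± 2.99 CPM in control libraries.

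Branch point and 3′ splice site factors had 6 of 15 lower and 1 higher. There dnajc8 averaged 41.9 ± 1.49 CPM in exposed and 55.7 ± 1.97 CPM in control libraries. SF1, the branch point binding gene and the 1 higher there, was not called with RLE scaling (adjusted p = 0.0559), by DESeq2 (0.0579) or without exposed library 1 or 3 or control library 2 or 3, and without control library 1 this list had 2 higher genes. U1 accessory proteins had 5 of 14 lower and 2 higher. TARDBP, which represses cryptic exons in mammals, fell, with 72.1 ± 3.68 CPM in exposed and 89.0 ± 3.11 CPM in control libraries, and taf15 rose, with 159.7 ± 0.844 and 139 ± 4.12 CPM in the same order. Core snRNP genes outside the name rule had 6 of 17 lower and 2 higher, with TXNL4B at 6.07 ± 1.06 CPM in exposed and 8.32 ± 1.23 CPM in control libraries. The call of TXNL4B was lost with DESeq2 (adjusted p = 0.0622) and without exposed library 1 (0.208) or 2 (0.110) or control library 2 (0.193) or 3 (0.0509). In the exon junction complex and export list 5 of 15 were lower and 2 higher. The largest decrease was that of upf3a, at 2.79 ± 0.0827 CPM in exposed and 4.87 ± 0.949 CPM in control libraries. RBM8A, a subunit of the exon junction complex, was picked after its value was seen. It averaged 125 ± 0.686 CPM in exposed and 163 ± 0.703 CPM in control libraries and fell. THOC2, of the export complex THO, rose, with 85.1 ± 6.96 CPM in exposed and 72.1 ± 2.12 CPM in control libraries.

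Minor spliceosome genes had 2 of 8 lower and 0 higher, with zmat5 at 11.6 ± 1.20 CPM in exposed and 19.4 ± 2.38 CPM in control libraries. Nonsense-mediated decay genes had 1 of 7 lower, SMG6, and 1 higher, the kinase gene SMG1. Other RNA-binding splicing proteins had 14 of 40 lower and 7 higher. ZRANB2 averaged 18.7 ± 0.970 CPM in exposed and 31.7 ± 1.69 CPM in control libraries, and rbm4.2 averaged 64.6 ± 0.811 and 44.3 ± 2.08 CPM in the same order. Counts in several of these small lists changed when 1 library was left out. Over all genes tested 3958 were lower and 4255 higher. With 1 library left out these were 3215 to 3823 lower and 3484 to 4240 higher, and fewest without an exposed library. The 6 lower genes among snRNP genes outside the rule became 2 without exposed library 2, and the 2 higher became 1 without exposed library 2 or 3. The 5 lower of the exon junction list became 2 without exposed library 3, and 3 without exposed library 1 or 2 or control library 1 or 2, and its 2 higher became 1 without exposed or control library 1. The 14 lower of the other RNA-binding proteins became 7 without exposed library 3, and 8 without exposed library 1 or 2. The 5 lower of the U1 list became 3 without exposed library 2 or control library 1, and the 2 lower of the minor spliceosome became 1 without exposed library 1 or 2 or control library 2 or 3.

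Tissue-restricted splicing regulators had larger fold changes than the splicing factor genes themselves, with 10 of 46 lower, 10 higher and 26 not past, and log2 fold changes from -1.08 to 1.02. Each share, 21.7%, was close to that over all genes tested (18.7% lower and 20.1% higher). A 1.5-fold change was passed by 17.4% of this list, against 1.23% of the splicing factor genes and 29.8% of all genes tested. MSI1, known from neural progenitors, averaged 12.8 ± 1.03 CPM in exposed and 26.9 ± 3.16 CPM in control libraries (log2 fold change -1.08, edgeR adjusted p = 1.75e-09). RBM24 (ENSDARG00000031809), a muscle splicing regulator gene, averaged 2.74 ± 0.230 CPM in exposed and 1.34 ± 0.287 CPM in control libraries (log2 fold change 1.02, edgeR adjusted p = 0.0102), while RBM24 (ENSDARG00000102995) fell, with 23.2 ± 0.713 and 33.2 ± 2.29 CPM in the same order. The next genes were picked after their values were seen. ESRP1 and ESRP2, the epithelial splicing regulators, rose to 95.6 ± 2.01 and 66.0 ± 1.84 CPM in exposed libraries, against 57.9 ± 2.95 and 36.7 ± 2.12 CPM in control libraries (edgeR adjusted p = 5.55e-12 and 5.28e-12). The polypyrimidine tract binding genes split. PTBP1 and PTBP3 were higher, at 121 ± 6.46 and 17.9 ± 0.448 CPM in exposed against 98.1 ± 7.38 and 10.1 ± 0.974 CPM in control libraries, and PTBP2, the neuronal form in mammals, was lower at 35.0 ± 1.08 against 48.9 ± 3.67 CPM. Markers of the tissues these genes are known from moved too. Epidermis markers are given above. Skeletal muscle markers, also given above, were mostly higher (8 of 9, with 1 lower), while the RBM24 genes named here went in opposite directions. Neural progenitor markers summed to 285 to 293 CPM in exposed and 734 to 761 CPM in control libraries (6 of 11 lower, 1 higher). Neuron markers, which share ELAVL3 and ELAVL4 with this list, summed to 471 to 486 CPM in exposed and 579 to 587 CPM in control libraries (7 of 11 lower, 1 higher). Proliferation markers summed to 1421 to 1447 CPM in exposed and 1537 to 1617 CPM in control libraries (7 of 17 lower, 4 higher). The part of these markers in the splicing factor values was not tested.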

How the data were processed

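RNA sequencing counts of 3 exposed and 3 control libraries were used. The authors deposited 1 table of raw counts by Ensembl gene. Tools named in the submitters' processing notes are FastQC, featureCounts 2.0.6, STAR 2.7.10a and R 4.4.2, with the build GRCz11. Options, strand setting and annotation release are not given in the sources used here. Of the nonzero counts in a library, 76.1% to 81.7% were even. Whether both mates of a read pair were counted is not stated and was not tested, and halved counts were run as an alternative.

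The main test was edgeR 4.0.16 (R 4.3.3) on these counts, with filterByExpr (minimum count 10, total 15), TMM scaling, a robust quasi-likelihood F-test, Benjamini-Hochberg adjustment over all genes tested and a threshold of 0.05. Each SE refers to the difference between group means of log2 CPM (prior count 2). Simulated data were used to check this step. Names came from a table of identifiers and symbols covering 29201 genes. The members and all lists were chosen with earlier results of these data known. Named genes are, in each class, the 5 largest called increases and decreases at 1 CPM or more and a set of standard genes whatever their values, and in each other list the largest called change of each direction. Other called or tested members are named to account for all. Paralog ratios were compared with an exact permutation test. RLE scaling, DESeq2 1.42.0, no filter on low counts, halved counts, a replicate block and each library left out were the 11 alternatives. The floor of 3 counts covers counting error only.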

Additional observations from a re-analysis of the deposited data

How the results depend on the processing

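RLE scaling in edgeR, DESeq2, no filter on low counts, halved counts and the replicate block were each set against the main fit with TMM scaling. Each kept the member counts within 1.5 times (26 or 27 lower, 7 or 8 higher). The median log2 fold change of all genes lay between -0.0059 and 0.0078 under these, against -0.0029 in the main fit. That of the members lay between -0.0871 and -0.0821, against -0.0850. Of the 33 calls among members, 18 (14 lower, 4 higher) held under all 11 alternatives and 0 changed sign. Of 48 members not past the threshold, 8 passed under at least 1 alternative. Leaving out 1 library gave 20 to 29 lower and 4 to 8 higher members, 5 to 7 lower and 0 to 2 higher SR protein genes, 2 to 4 lower and 3 to 6 higher hnRNP genes, and 10 to 16 lower and 0 to 1 higher core genes. The medians then ranged from -0.101 to -0.0729 for the members, -0.15 to -0.12 for SR proteins, -0.05 to -0.04 for hnRNPs and -0.13 to -0.11 for core genes. With the 50 genes of highest count left out of the total, the log2 ratio of shares was -0.13 for SR proteins (-0.16 with them), 0.015 for hnRNPs (-0.008), -0.060 for core genes (-0.08) and -0.048 for all members (-0.07). By construction, only the total differs there. Same-numbered libraries did not pair (correlations of deviations from the group means between -0.013 and 0.012). The fit with the replicate number as a block gave 27 lower and 7 higher members. The gene hnrnpa0b had only 10 to 22 counts per library, so its fold change is uncertain. What limits the other members under about 5 CPM was not tested.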
